A study of Mus musculus with 180 samples.

Results

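*Ogfr* and *Scand1* are 2 genes of mouse chromosome 2, and both were selected on the RNA-seq values described here, by their rows in the table of normalized exonic read counts and for their lower levels with the clinical kinase inhibitors (CKIs) Filgotinib, BMS911543 and Lapatinib. They are 2 of the 45070 genes in the table and 2 of the 12714 that had a mean normalized read count of at least 10. All samples were bone marrow-derived macrophages (BMDMs) of wild-type genotype, which the study derived from young male C57/BL6 mice. The cells were given the vehicle DMSO or 1 of 58 CKIs for 1 h and then lipopolysaccharide (LPS, 10 ng/ml) for 2 h, so every group, DMSO included, was stimulated and no group was without LPS. Each CKI had 3 samples and DMSO had 6, in 2 sets of 3, which makes 180 polyA RNA-seq libraries. The dose of each CKI was set on its own, for an intended target that can differ from the kinase it was developed against. Levels with different CKIs are therefore given side by side and not as a comparison of the compounds, and the classes below go by the kinase a CKI was developed against. Where nothing else is said, a value is a normalized read count, and a group is a CKI or DMSO.

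*Ogfr* encodes the opioid growth factor receptor, a protein of the nuclear envelope and nucleus that has no sequence relation to the classical opioid receptors. It binds met-enkephalin, the peptide made from the product of *Penk*, and is known for slowing the cell cycle through cyclin-dependent kinase inhibitors such as the product of *Cdkn1a*. *Scand1* encodes a short protein that is mostly a SCAN domain, the module through which many zinc finger transcription factors pair with each other. The protein has no zinc fingers of its own, and is known as a partner of SCAN zinc finger proteins such as MZF1.

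In the mm10 coordinates of the deposited table, *Ogfr* (Entrez gene 72075) lies on the plus strand at chr2:180589407-180595837, and *Scand1* (Entrez gene 19018) on the minus strand at chr2:156311846-156312704, 24.3 Mb away. GENCODE gives the coding transcript of *Ogfr* 7 exons and 633 codons, and that of *Scand1* 2 exons and 142 codons. Of the 759 exonic bases of *Scand1* in GENCODE, 307 are also exonic in *Cnbd2*, a gene on the opposite strand. In the deposited coordinates, by which the values were counted, *Scand1* and *Cnbd2* overlap by 232 bases. As no source says that strand was used in counting, reads there cannot be assigned to one gene with certainty. Both transcripts are rich in G and C, with 59.6% for *Ogfr* and 68.4% for *Scand1*, against a median of 49.4% over the 11995 tested genes (94.3%) with a GENCODE transcript of the same name. The value of *Scand1* stands above 99.97% of these genes.

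The promoters of both genes are shown with the motifs searched in them. They are given from RefSeq on GRCm38.p6, 250 bases before to 50 bases after the gene start, read along the gene, and both genes were found in the RefSeq table. Capitals mark the GC box (GGGCGG on either strand) and, in *Ogfr* alone, the interferon-stimulated response element (TTTCNNTTTC on either strand). The first sequence is chr2:180589157-180589456 on the plus strand and the second is chr2:156312655-156312954 on the minus strand.
Ogfr: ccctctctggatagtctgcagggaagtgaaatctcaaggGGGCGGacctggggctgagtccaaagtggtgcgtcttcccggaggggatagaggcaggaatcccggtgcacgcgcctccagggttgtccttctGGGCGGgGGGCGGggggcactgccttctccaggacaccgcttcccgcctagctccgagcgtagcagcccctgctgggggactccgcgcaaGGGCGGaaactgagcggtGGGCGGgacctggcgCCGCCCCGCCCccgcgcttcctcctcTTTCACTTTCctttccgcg
Scand1: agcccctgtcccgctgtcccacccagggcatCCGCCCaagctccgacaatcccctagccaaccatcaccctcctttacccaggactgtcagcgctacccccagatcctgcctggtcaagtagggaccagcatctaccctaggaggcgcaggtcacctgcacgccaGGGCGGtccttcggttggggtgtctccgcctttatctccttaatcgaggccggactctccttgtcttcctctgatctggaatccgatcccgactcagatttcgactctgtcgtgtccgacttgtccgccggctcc

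The *Ogfr* window held 7 GC boxes, 2 of which share 1 base, and the *Scand1* window held 2. Of all 32851 RefSeq promoters of this length, 35.7% held at least 1. The interferon-stimulated response element matched once in *Ogfr*, as TTTCACTTTC from 31 bases after the start, and 3.44% of promoters held a match. The NF-kB motif matched once in *Ogfr*, as GGGGGACTCC from 44 bases before the start, and 4.51% of promoters held one. Neither window held the interferon gamma-activated site (TTCNNNGAA, in 8.3% of promoters), the ETS site (CCGGAA, 14.9%), the E-box (CACGTG, 7.15%), the AP-1 site (TGANTCA, 7.81%) or the cAMP response element (TGACGTCA, 1.79%). The windows held 24 and 18 CG pairs, against a median of 7. A match describes the letters only. The study shows *Ogfr* as an example of a gene that LPS induces independently of interferon.

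The totals of the normalized values lay between 9477340 and 12273349 per library, but the values were scaled by the authors, so the number of sequenced reads behind them is not known. The 10 macrophage markers all passed the filter, with a summed level of 106795 to 236177 in DMSO and of 92050 to 270965 with the CKIs. The T cell and erythroid markers did not reach the filter in any case, and the 6 neutrophil markers summed to 217 to 603 in DMSO, 401 to 642 with Filgotinib, 402 to 508 with BMS911543 and 832 to 1065 with Lapatinib. Of the mast cell markers, *Mcpt4* was at 0 in all libraries, while *Kit* passed the filter with a DMSO mean of 14.7. *Cd79b* (B cell), *Col1a1* and *Col1a2* (fibroblast) and *Xcr1* (dendritic cell) also passed. Their DMSO means were 9.17, 33.0, 18.8 and 56.5. The share of mitochondrial transcripts was 1.15% ± 0.438 (SD, n = 6) in DMSO, 1.84% ± 0.654 with Filgotinib, 1.14% ± 0.0943 with BMS911543 and 2.76% ± 0.90 with Lapatinib (n = 3 each). The part of these shares and of the neutrophil signal in the results was not tested. Since these are bulk samples, fewer transcripts per cell and fewer cells with the transcript cannot be told apart.

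In DMSO, *Ogfr* was at 624, 855 and 1182 in the first set and at 474, 1027 and 991 in the second. These samples span a 2.49-fold range, and the set means of 887 ± 280 and 831 ± 309 (SD, n = 3 each) lie within it. *Scand1* was at 355, 160 and 29 in the first set and at 182, 306 and 39 in the second, a 12.2-fold range in which the third sample of each set is the low one. Per kilobase of transcript, the mean DMSO level was 375 for *Ogfr* and 235 for *Scand1*, higher than 82.6% and 76.1% of the tested genes.

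With the CKIs for which both genes were chosen, the levels are a description and carry no test. *Ogfr* was at 134, 211 and 138 with Filgotinib, developed against the Janus kinase JAK1 and dosed for the kinase IRAK1. It was at 110, 155 and 165 with BMS911543, developed against JAK2 and dosed for the quinone reductase NQO2. It was at 169, 206 and 254 with Lapatinib, developed against the receptor tyrosine kinases EGFR and ERBB2 and dosed for EGFR. All 9 samples lie below the lowest DMSO sample, and the means were 18.7%, 16.7% and 24.4% of the DMSO mean. On the log2(value + 1) scale the differences from DMSO were -2.37, -2.53 and -1.98 (SE 0.379 each).

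*Scand1* was at 10, 82 and 35 with Filgotinib, 6, 21 and 7 with BMS911543, and 6, 75 and 64 with Lapatinib. Only the BMS911543 samples lie wholly below DMSO. With Filgotinib and Lapatinib 1 sample each was under the lowest DMSO value of 29 and the others were within the DMSO range. The log2 differences were -1.97, -3.55 and -1.94 (SE 0.742 each). Among the 12714 tested genes ordered from the lowest difference up, *Ogfr* stood at place 1 with Lapatinib, 17 with BMS911543 and 23 with Filgotinib, and *Scand1* at 2, 3 and 48. The share of all tested genes called lower (limma, adjusted p under 0.05) was 14.6% with Filgotinib, 8.08% with BMS911543 and 5.26% with Lapatinib.

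**Figure D1:**
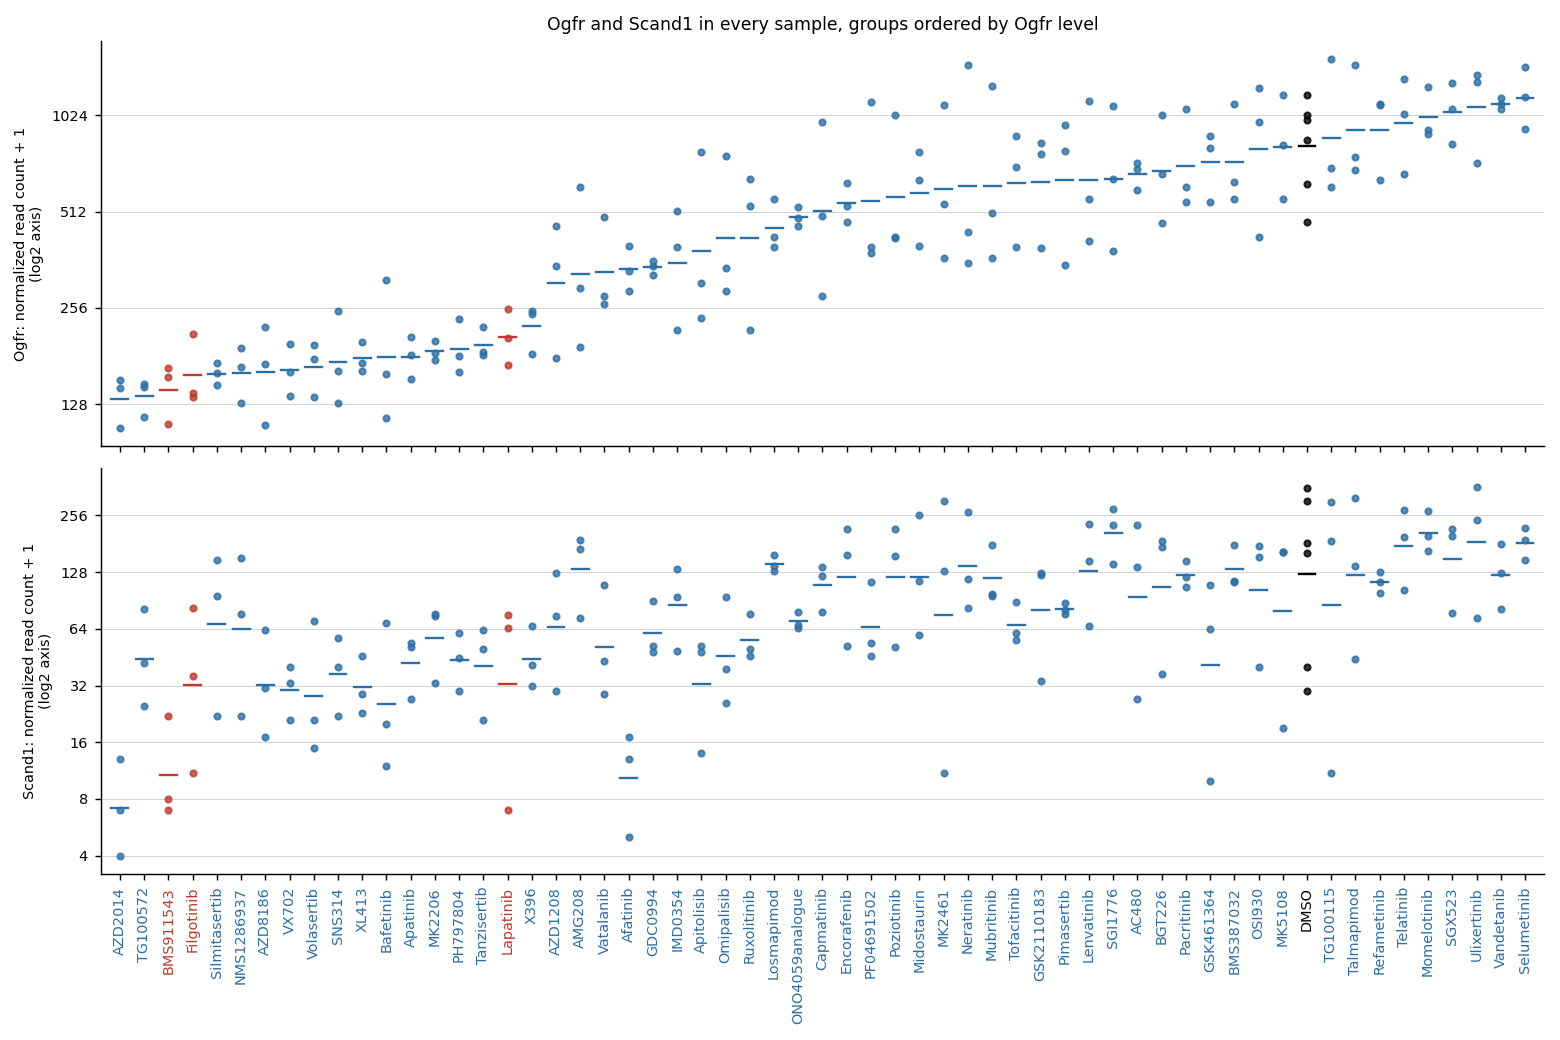
Normalized read counts + 1 of *Ogfr* (top) and *Scand1* (bottom) on log2 axes, for 59 groups ordered along the x axis by their *Ogfr* level. Points are samples, bars are means of the log2 values, black is DMSO, red marks Filgotinib, BMS911543 and Lapatinib, and blue the other CKIs. The largest gap between neighbours in *Ogfr* level, 0.45, is between X396 and AZD1208, with 18 groups below it, and is smaller than the pooled SD within groups of 0.55.

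Over all 180 samples *Ogfr* ran from 107 to 1531 with a median of 434, a 14.3-fold range, and 94 of the 174 CKI samples lay below the lowest DMSO sample while 11 lay above the highest. *Scand1* ran from 3 to 362 with a median of 76, a 121-fold range, with 33 CKI samples below and 1 above the DMSO samples. The lowest *Ogfr* groups were AZD2014, TG100572 and BMS911543, and the highest were Ulixertinib (725, 1298 and 1364), Vandetanib (1066, 1105 and 1156) and Selumetinib (924, 1164 and 1449). DMSO was the 50th of the 59 groups. The largest gap between neighbours in this order was 0.45 on the log2 scale, between X396 at 7.81 and AZD1208 at 8.26, and the next was 0.16. No 2 neighbours differed by more than the pooled SD within groups, which was 0.55.

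The lowest *Scand1* groups were AZD2014 (3, 6 and 12), Afatinib (12, 4 and 16) and BMS911543, and the highest were Ulixertinib (362, 242 and 72), Momelotinib (198, 269 and 164) and SGI1776 (227, 140 and 276). The gap of 1.25 above BMS911543 was the one interval between neighbours that exceeded the pooled SD of 1.06, and DMSO was the 48th group. The samples of AZD2014, Afatinib and BMS911543 overlapped.

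The tests below cover the 55 CKIs that the choice of the genes did not use, each against the same 6 DMSO samples. The choice of the genes used these DMSO samples too, so the comparisons are independent neither of each other nor of the choice. *Ogfr* was called lower in 18 of the 55 CKIs and higher in 0, where the test found 1.24% of all gene and CKI combinations lower and 2.21% higher. At an unadjusted p under 0.05, *Ogfr* was lower in 25 CKIs and higher in 0, where 4.73% of all combinations were lower and 10.1% higher. It also lay wholly below the DMSO samples in 18 CKIs, against 1.73% of combinations. AZD1208 and GDC0994 were in this second count without passing the test, and Apitolisib and Omipalisib passed the test with 1 or more samples inside the DMSO range. *Scand1* was called lower in 2 CKIs, AZD2014 and Afatinib, and higher in 0, and at an unadjusted p under 0.05 it was lower in 15 and higher in 0, beside the same shares over all combinations.

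**Figure D2:**
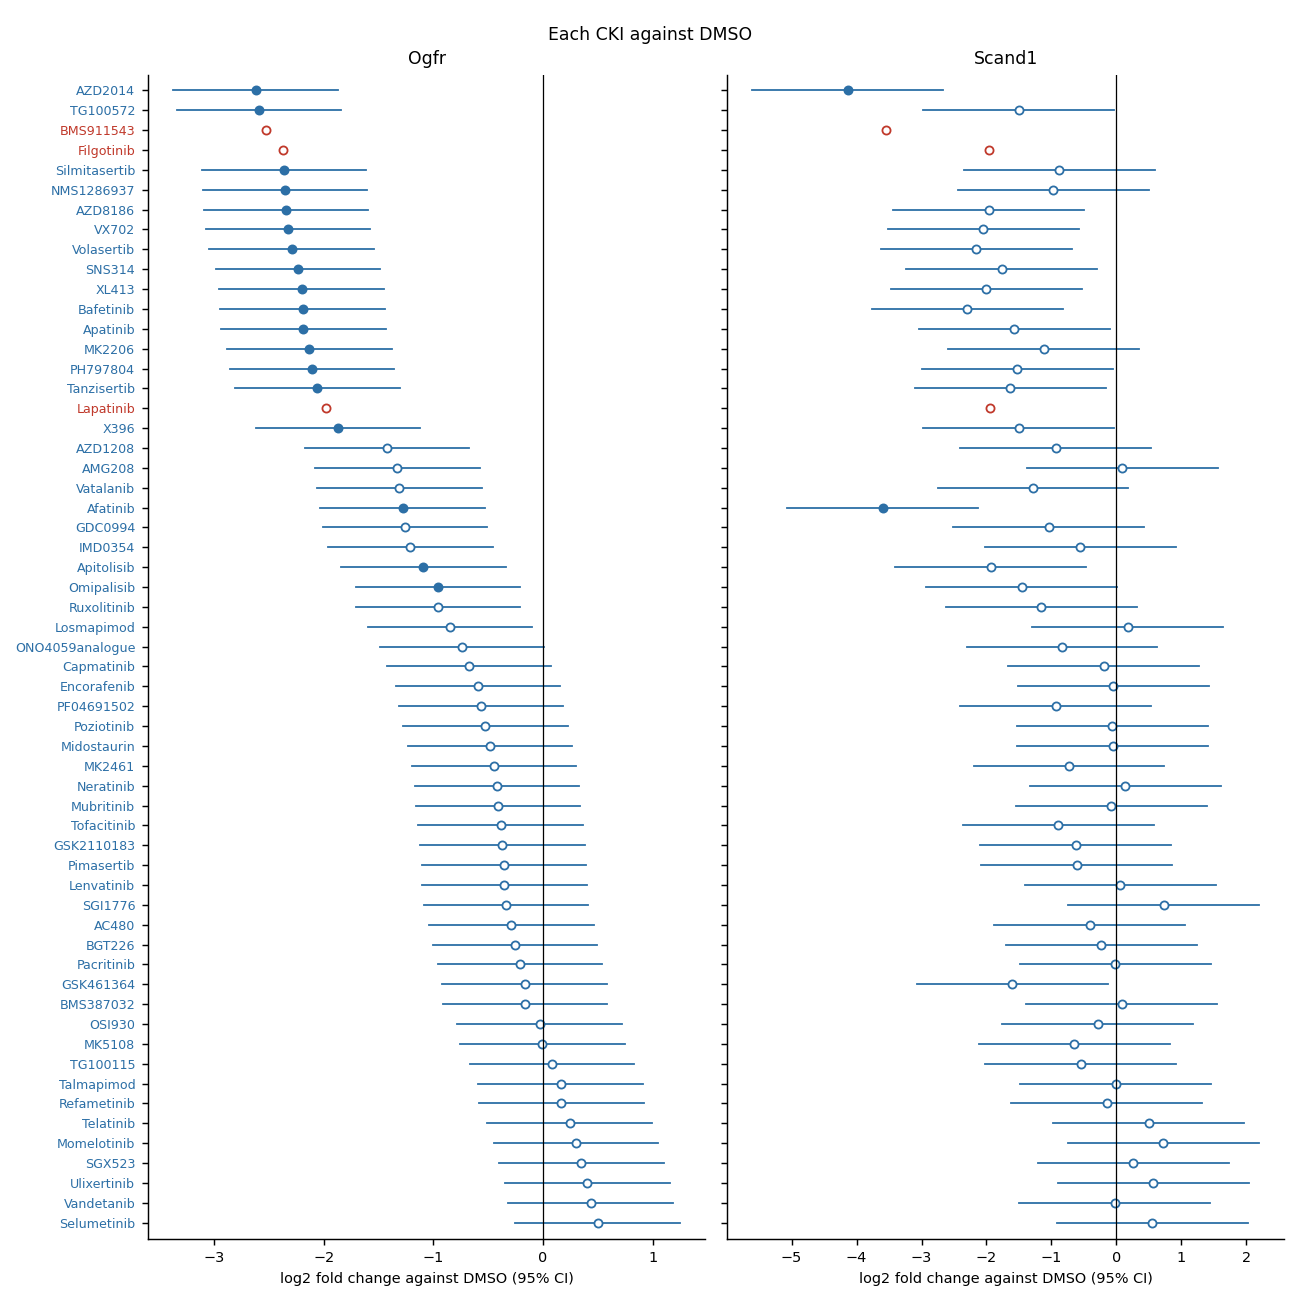
Log2 fold change against DMSO of *Ogfr* (left) and *Scand1* (right) for 58 CKIs, with 95% confidence intervals from limma as lines. Filled points passed the test at an adjusted p under 0.05, open blue points did not, and red open points are the CKIs that chose the genes, drawn without interval or test. The *Ogfr* fold changes ran from -2.62 with AZD2014 to 0.50 with Selumetinib, and those of *Scand1* from -4.13 with AZD2014 to 0.73 with SGI1776.

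Among the 7 CKIs against PI3K and mTOR, lipid and protein kinases of growth signalling, 4 were called lower for *Ogfr*. With AZD2014 (also known as vistusertib), which inhibits mTOR, *Ogfr* was at 151, 143 and 107, a log2 fold change of -2.62 (limma, adjusted p = 1.4e-08), where 13.5% of all genes were called lower. With AZD8186 it was at 170, 222 and 109, a log2 fold change of -2.35 (adjusted p = 4.9e-05), where 0.228% of genes were called lower. All samples of both groups lie below DMSO. With Apitolisib it was at 237, 305 and 783 (-1.09, adjusted p = 0.038, 3.2% of genes lower) and with Omipalisib at 341, 761 and 288 (-0.96, adjusted p = 0.0496, 8.16% of genes lower), and in each of these groups 1 sample reached the DMSO range. The calls with Apitolisib and Omipalisib were lost in 10 and 8 of the 12 fits that left out samples. PF04691502 (380 to 1125), BGT226 (668, 1025 and 471) and TG100115 (702, 1531 and 609) did not pass the test.

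Of the CKIs against the mitotic kinases PLK1 and Aurora, 3 of 5 were called lower. *Ogfr* was at 166, 128 and 191 with NMS1286937, with a log2 fold change of -2.35 (limma, adjusted p = 4.5e-05, 0.37% of genes lower), and at 134, 195 and 176 with Volasertib, with a log2 fold change of -2.30 (adjusted p = 1.2e-05, 1.34% of genes lower). SNS314 gave 128, 162 and 250 (-2.24, adjusted p = 0.00020, 0.22% of genes lower). All 9 of these samples lie under the lowest DMSO sample. With GSK461364, another PLK1 inhibitor, *Ogfr* was at 546, 883 and 808, within the DMSO range, and its fold change of -0.17 had a 95% confidence interval from -0.92 to 0.58. With the Aurora inhibitor MK5108 it was at 558, 827 and 1180, with an interval from -0.76 to 0.74.

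Of the 4 CKIs against p38, a stress-activated MAP kinase, VX702 (161, 135 and 197, -2.33, limma, adjusted p = 6.3e-05, 0.181% of genes lower) and PH797804 (161, 235 and 180, -2.11, adjusted p = 5.7e-05, 1.25% of genes lower) were called lower for *Ogfr*. Losmapimod gave 395, 425 and 559, a fold change of -0.85 with an interval from -1.60 to -0.10, and Talmapimod gave 690, 1471 and 759, with an interval from -0.59 to 0.91. Neither passed the test after adjustment, and the differences between the p38 inhibitors were not tested.

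Of the 7 CKIs against VEGFR, the receptors of vascular endothelial growth factor, 2 were called lower. TG100572, developed against VEGFR and SRC and dosed for the JAK family kinase TYK2, gave 116, 144 and 147, the second lowest *Ogfr* level (-2.59, limma, adjusted p = 1.3e-06, 0.488% of genes lower), and Apatinib gave 207, 182 and 153 (-2.19, adjusted p = 0.00015, 0.496% of genes lower). The AKT inhibitor MK2206 gave 175, 201 and 184 (-2.13, adjusted p = 0.00045, 0.834% of genes lower), while the other AKT inhibitor, GSK2110183, gave 393, 836 and 775 and did not pass the test. Vandetanib, which also acts on VEGFR, was among the highest *Ogfr* groups, with a fold change of 0.43 and an interval from -0.32 to 1.18.

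The other calls came from 5 of the 9 CKIs whose targets fall outside these classes. *Ogfr* was at 171, 159 and 146 with Silmitasertib, an inhibitor of casein kinase CK2 (-2.37, limma, adjusted p = 2.6e-05, 0.275% of genes lower), and at 200, 162 and 172 with XL413, an inhibitor of the replication kinase CDC7 (-2.20, adjusted p = 0.00012, 0.771% of genes lower). The JNK inhibitor Tanzisertib gave 182, 186 and 222 (-2.06, adjusted p = 0.00088), where only 0.0629% of all genes, 8 in number, were called lower. The ALK inhibitor X396 gave 249, 244 and 183 (-1.87, adjusted p = 0.0020, 0.354% of genes lower). Bafetinib, an inhibitor of ABL and LYN, gave 115, 158 and 312 (-2.19, adjusted p = 9.8e-05, 1.89% of genes lower). All of these samples lie below the DMSO samples.

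The intended target was in the class given here for MK2206, PH797804, VX702, Silmitasertib and Tanzisertib. It was another for the remaining CKIs called for *Ogfr*: AZD2014 was dosed for PFKP, AZD8186 for TOP2B, Apitolisib for JAK1, Omipalisib for IRAK3, NMS1286937 for casein kinase CK2, Volasertib for CAMKK2, SNS314 for ACOX3, TG100572 for TYK2, Apatinib for RIPK3, XL413 for PIM1, X396 for MAP3K1 and MAP4K2, Bafetinib for MAPKAPK3 and Afatinib for MAPK9. Which target the level of *Ogfr* goes with was not tested.

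For the classes of the CKIs that chose the genes, the values of the other members stand side by side. Among the CKIs developed against JAK kinases *Ogfr* was at 218, 533 and 647 with Ruxolitinib (-0.96, 95% interval -1.71 to -0.21), 397, 707 and 879 with Tofacitinib (-0.39, -1.14 to 0.36), 548, 608 and 1069 with Pacritinib (-0.21, -0.96 to 0.54) and 894, 1253 and 920 with Momelotinib (0.30, -0.45 to 1.05). None of these 4 passed the test after adjustment, and at an unadjusted p under 0.05 Ruxolitinib, which had 1 sample below DMSO, was lower. *Scand1* was at 49, 45 and 76 with Ruxolitinib, 55, 88 and 60 with Tofacitinib, 106, 120 and 145 with Pacritinib and 198, 269 and 164 with Momelotinib, all within the DMSO range. Of the CKIs dosed for a JAK family kinase, TG100572 (TYK2) and Apitolisib (JAK1) were called lower for *Ogfr*, with the values given above, and Ruxolitinib and MK5108 (JAK2) and Pacritinib (TYK2) were not.

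Among the CKIs against the ERBB receptors, Afatinib gave the one call for *Ogfr*, with 333, 398 and 288, a log2 fold change of -1.28 (limma, adjusted p = 0.0087), where 12.8% of all genes were called lower. *Ogfr* was at 421, 426 and 1027 with Poziotinib, 442, 353 and 1470 with Neratinib, 507, 1258 and 367 with Mubritinib and 598, 696 and 727 with AC480, and none of these passed the test. *Scand1* with Afatinib was at 12, 4 and 16, wholly below DMSO, with a log2 fold change of -3.60 (SE 0.742, interval -5.07 to -2.13, adjusted p = 0.00013). With Poziotinib (155, 216 and 50), Neratinib (82, 116 and 266), Mubritinib (95, 177 and 97) and AC480 (135, 228 and 26) *Scand1* had all samples, or all but 1, within the DMSO range.

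The other call for *Scand1* was AZD2014, with a log2 fold change of -4.13 (SE 0.742, interval -5.60 to -2.66, limma, adjusted p = 4.5e-06) and a mean of 7.0 ± 4.58 against 178.5 ± 134 in DMSO (SD, n = 3 and 6). With AZD2014 and Afatinib the shares of genes called lower, 13.5% and 12.8%, were far above the 1.24% of the 55 CKIs together. *Scand1* stood at place 5 from the lowest among all genes with AZD2014 and place 2 with Afatinib. No CKI against MEK, ERK or RAF was called lower for either gene, and the 6 of them ranged from -1.26 with GDC0994 to 0.50 with Selumetinib for *Ogfr*. At an unadjusted p under 0.05, GDC0994 was lower for *Ogfr* and none for *Scand1*.

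The number of calls for *Ogfr* depended on single replicates. It was 8 without the second replicates of all groups, which removed 10 of the 18 CKIs, and 10 without the first replicates of the CKIs. Calls for 7 of the 18 CKIs (AZD2014, AZD8186, NMS1286937, PH797804, Silmitasertib, TG100572 and Volasertib) held in all 12 fits that left out samples. Against the mean of the other 57 CKIs in place of DMSO, which includes Filgotinib, BMS911543 and Lapatinib, *Ogfr* was called lower in 6 (1.17% of combinations) and higher in 3 (1.14%). Against the mean of the other 54 CKIs, a reference added after the data were seen that leaves out DMSO and these 3 CKIs, *Ogfr* was called lower in 8 (1.2% of combinations) and higher in 3, Momelotinib, Selumetinib and Ulixertinib (1.1%). *Scand1* was called lower in AZD2014 and Afatinib against both. The number for *Scand1* was 1 without the second replicates, when Afatinib was lost. It was 11 without the third replicates, and 4 without the third sample of either DMSO set, which are the low DMSO samples.

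Of the 12714 tested genes, 8860 were not called lower in any of the 55 CKIs, and 8 were called lower in 18 or more. The cut at 18 was set by *Ogfr* itself and serves as a description. The genes were *Mxd1* (22 CKIs), which encodes a MYC antagonist, *Sertad2* (21), *Tspyl1*, *Ehd4*, *Fam177a* and *Fam177a2* (20 each), *Map3k11* (19), a kinase upstream of JNK, and *Ogfr* (18). The pair *Fam177a* and *Fam177a2* may share reads. In 12 of the 55 CKIs *Ogfr* had the lowest log2 fold change of all tested genes, more often than any other gene, with *Nos2*, the inducible nitric oxide synthase, next in 5. Among the 12 is AMG208, with which *Ogfr* did not pass the test and 0 genes were called lower. *Ogfr* was chosen for its falls against these same DMSO samples, so this count too is a description. *Scand1* was 1 of 2026 genes called lower in 2 or more CKIs.

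**Figure D3:**
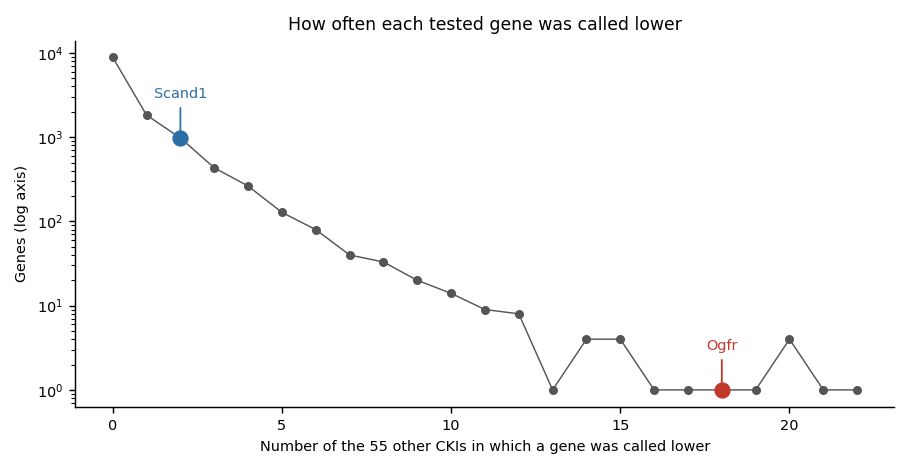
Number of tested genes (y, log axis) by the number of the 55 CKIs in which each was called lower than DMSO (x). *Ogfr* stands at 18 CKIs and *Scand1* at 2, and 8860 genes are at 0.

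Over DMSO and the 55 CKIs, the group means of *Ogfr* and *Scand1* on the log2 scale had a Pearson correlation of 0.75 (n = 56 groups), given as a description. Of the other genes, 199 had a higher correlation with *Ogfr* than *Scand1* did, and 339 a higher one with *Scand1* than *Ogfr* did. The deviations of single samples from their group means had a lower correlation, 0.22 (n = 180 samples). Groups did not all follow the same line. Silmitasertib and NMS1286937 were among the lowest *Ogfr* groups while *Scand1* was at 148, 95 and 21 and at 76, 152 and 21, and with AMG208 *Ogfr* was at 192, 612 and 294 while *Scand1* was at 189, 169 and 72, within the DMSO range. In the other direction, *Scand1* was at 63, 108 and 9 with GSK461364 while *Ogfr* was within the DMSO range.

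**Figure D4:**
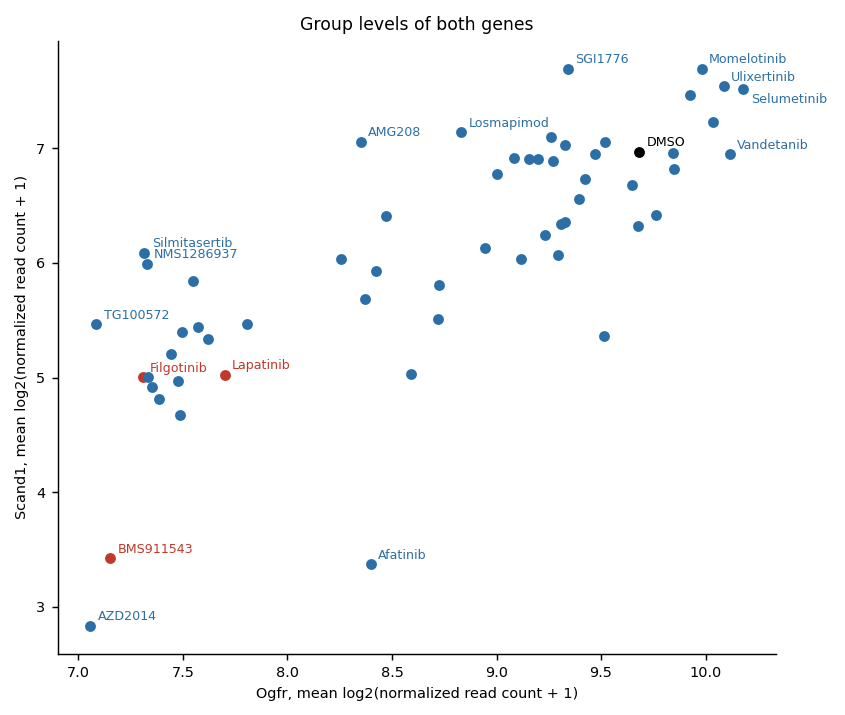
Mean log2(normalized read count + 1) of *Scand1* (y) against *Ogfr* (x), 1 point per group, with DMSO in black, the CKIs that chose the genes in red and the others in blue. AZD2014 and BMS911543 are low for both genes, Afatinib is low for *Scand1* at a middle *Ogfr* level, and Silmitasertib, NMS1286937 and TG100572 are low for *Ogfr* with a middle *Scand1* level.

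The replicate numbers also moved with both genes. *Ogfr* had a mean of 425 in the 60 samples numbered 1, 616 in those numbered 2 and 590 in those numbered 3, and number 1 was the lowest in 33 of the 59 groups. *Scand1* had means of 108, 122 and 66.2, and number 3 was the lowest in 31 groups. Over the 56 groups, the correlation with the share of mitochondrial transcripts was 0.33 for *Ogfr* and 0.12 for *Scand1*, and with the log2 of the library total 0.45 and 0.19. The part of replicate number, mitochondrial share and total in the levels was not tested beyond the fits given for the processing.

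The genes most like *Ogfr* over DMSO and the 55 CKIs, by the Pearson correlation of log2 group means, were *Was* (0.96), *Inppl1* (0.96), *Cyth1* (0.95), *Dhx16* (0.95), *Tspyl1* (0.95), *Egln2* (0.94), *Usp19* (0.94) and *Wbp1l* (0.94). *Was* encodes the Wiskott-Aldrich syndrome protein, an actin regulator of blood cells, *Inppl1* the lipid phosphatase SHIP2, *Cyth1* an activator of ARF GTPases, *Dhx16* a splicing helicase and *Egln2* a prolyl hydroxylase that acts on hypoxia-inducible factors. They lie on 7 chromosomes, their transcripts hold 46.9% to 62.2% G and C, and their deviations within groups correlated with those of *Ogfr* at 0.67 to 0.85. Of the 12713 other genes, 22 had a correlation of at least 0.9 with *Ogfr* and the median was 0.13. The least like were *Cnot10* (-0.60), *Oaz1-ps* (-0.58) and *Rpn2* (-0.54).

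The genes most like *Scand1* were *Wdr41* (0.95), *Rbm17* (0.95), *Mtarc2* (0.94), *Map2k2* (0.94), *Hspa4* (0.94), *Get4* (0.94), *Zdhhc3* (0.94) and *Rala* (0.94). *Map2k2* encodes the MAP kinase kinase MEK2, *Hspa4* a chaperone of the HSP110 family, *Rbm17* a splicing factor, *Get4* a factor for the insertion of tail-anchored proteins and *Rala* a RAS-like GTPase. They also lie on 7 chromosomes, and their correlations within groups were 0.72 to 0.90. None of them is among the genes most like *Ogfr*, with which they correlated at 0.74 to 0.86. For *Scand1*, 46 genes had a correlation of at least 0.9 and the median over all genes was 0.08. The least like were *Cox7a2l* (-0.54), *Gm6969* (-0.51) and *Tmbim4* (-0.50).

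The genes like *Ogfr* were called lower in 1 (*Wbp1l*) to 20 (*Tspyl1*) of the 55 CKIs, and those like *Scand1* in 2 to 6. In the CKIs left out of the likeness, whose comparisons share the DMSO samples with it, all 8 genes like *Ogfr* were called lower with Filgotinib (14.6% of all genes), BMS911543 (8.08%) and Lapatinib (5.26%) alike. *Dhx16*, for example, had a DMSO mean of 265 and means of 75.7, 47.0 and 69.3 with these CKIs. Of the genes like *Scand1*, 6 were called lower with Filgotinib, 8 with BMS911543 and 2 with Lapatinib. The genes were chosen for their likeness over groups that include these DMSO samples, so nothing is read from these counts. *Mtarc2* had a DMSO mean of 430 and means of 139, 50.3 and 173, and its fold change of -3.16 with BMS911543 was the lowest of the 8.

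**Figure D5:**
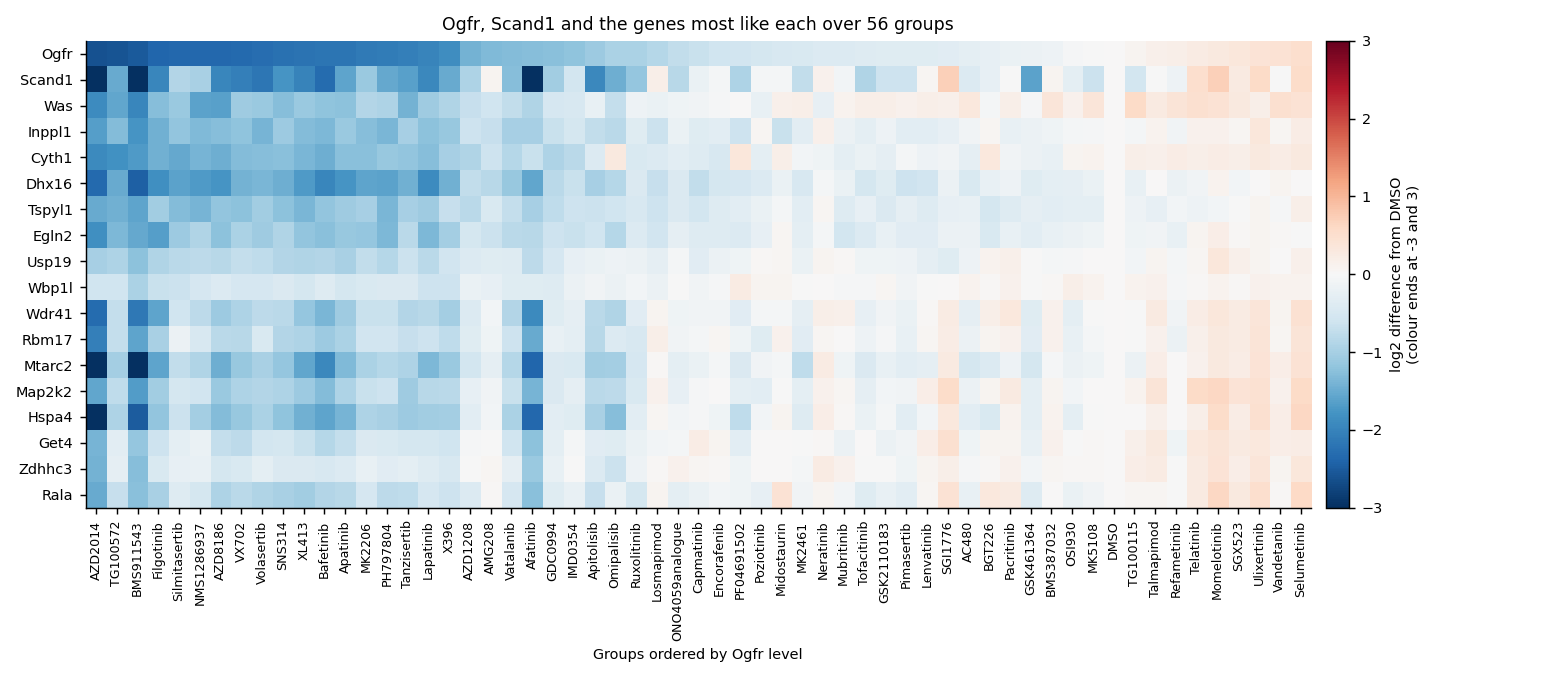
Difference of each group's mean from DMSO on the log2 scale (colour) for *Ogfr*, *Scand1*, the 8 genes most like *Ogfr* (*Was* to *Wbp1l*) and the 8 most like *Scand1* (*Wdr41* to *Rala*), with groups along the x axis ordered by *Ogfr* level. The genes like *Ogfr* are low over the groups at the left, and those like *Scand1* are lowest with AZD2014, BMS911543 and Afatinib. Colours end at -3 and 3, beyond which *Scand1* lies with AZD2014, BMS911543 and Afatinib, *Mtarc2* with AZD2014 and BMS911543, and *Hspa4* with AZD2014.

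Of the 5 genes within 50 kb of *Ogfr*, only *Mrgbp*, which encodes a subunit of a histone acetyltransferase complex and ends 3103 bases upstream, passed the filter. *Mrgbp* had a mean of 29.8, a correlation of -0.05 with *Ogfr* and 0 limma calls in the 55 CKIs (5 lower and 0 higher at an unadjusted p under 0.05). It was called lower with Filgotinib (log2 fold change -0.68, limma, adjusted p = 0.041), where 14.6% of all genes were called lower. It was not called with BMS911543 (-0.30, 0.57) or Lapatinib (0.08, 0.83). *Col9a3*, *Gm30144*, *Ntsr1* and *Tcfl5* had means of 1.07 or less.

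Around *Scand1*, the overlapping gene *Cnbd2* was at 236 to 533 in DMSO, 239 to 469 with Filgotinib, 300 to 517 with BMS911543 and 297 to 496 with Lapatinib, with fold changes of -0.07, 0.13 and 0.14 that did not pass the test. Its correlation with *Scand1* was -0.04. The pseudogene *Gm14253*, which lies inside *Cnbd2*, had a correlation of -0.03. *Phf20*, a chromatin reader gene that ends 1893 bases from *Scand1*, was called higher with Filgotinib (0.49, limma, adjusted p = 0.0014) and Lapatinib (0.38, adjusted p = 0.017), the opposite of the direction of *Scand1*. Of all genes, 6.1% were called higher with Filgotinib and 18.1% with Lapatinib. None of these 3 genes was lower in the 55 CKIs, either by the adjusted p or at an unadjusted p under 0.05. *Phf20* was called higher in 6, where 2.21% of all gene and CKI combinations were higher.

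Of 16 genes of opioid growth factor signalling, 7 passed the filter. *Penk*, the gene of the ligand precursor, had a mean of 15.3 and was at 15 to 32 in DMSO. It was called lower with Filgotinib (-0.88, limma, adjusted p = 0.035) and not with BMS911543 (-0.51, 0.41) or Lapatinib (-0.59, 0.15). This was 1 of the 7 genes, or 14.3%, near the 14.6% of all genes called lower with Filgotinib. The classical receptor genes *Oprm1*, *Oprk1*, *Oprl1* and *Oprd1* had means between 0.0611 and 2.83. *Cdkn1a* stood at a mean of 21528 and *Cdkn2a* at 5.73, and *Cdkn1a* was not called in any comparison. The paralogue *Ogfrl1* had a mean of 76.7, a correlation of 0.38 with *Ogfr* and no call.

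Of the nuclear import genes in this list, *Kpnb1*, which encodes importin beta, had the highest correlation with *Ogfr* (0.55). It was called higher with Lapatinib (0.72, adjusted p = 0.0092 by limma), where 18.1% of all genes were called higher. *Kpna1*, *Ran* and *Nup62* were not called with Filgotinib, BMS911543 or Lapatinib. Over the 55 CKIs, 3 of 385 combinations of these 7 genes were called lower and 5 higher, all 5 of them for *Kpnb1*. The lower share was 0.779%, against 1.24% over all genes, and 2.21% of all gene and CKI combinations were higher. The list's median fold changes were 0.08 with Filgotinib, -0.09 with BMS911543 and -0.02 with Lapatinib, beside medians of -0.04, 0.00 and 0.11 over all tested genes.

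Of 36 genes listed with SCAN domain proteins and their partners, 34 were in the table and 23 passed the filter. *Mzf1*, the gene of a known partner of the *Scand1* product, was below it, with a mean of 5.22. With Filgotinib 3 of 23 were called lower, *Zfp213* (-1.42), *Zkscan3* (-1.28) and *Zscan29* (-0.87), and 3 higher, *Zfp263* (0.27), *Zkscan1* (0.49) and *Pparg* (0.86). *Zkscan8*, a SCAN zinc finger gene at 17 to 46 in DMSO, was the one gene called lower with BMS911543 (-0.99, limma, adjusted p = 0.026) and with Lapatinib (-0.83, adjusted p = 0.041). *Zscan21* and *Pparg* were called higher with Lapatinib. Over all tested genes, 14.6%, 8.08% and 5.26% were called lower with Filgotinib, BMS911543 and Lapatinib, and 6.1%, 0.472% and 18.1% higher. Over the 55 CKIs, 17 of 1265 combinations were lower and 33 higher. The lower share was 1.34%, against 1.24% over all genes, and 2.21% of all gene and CKI combinations were higher. The highest correlation of the list with *Scand1* was 0.46, for *Zfp445*.

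Of 24 interferon-stimulated genes, all of which passed the filter, 11 were called lower with Filgotinib, among them *Mx1* (-1.72), *Cmpk2* (-1.61), *Stat2* (-1.39) and *Usp18* (-1.38), where 14.6% of all genes were called lower. With BMS911543 0 passed the limma test in either direction (at an unadjusted p under 0.05, 0 were lower and 1 higher), and with Lapatinib 0 were lower and 4 higher, *Isg15*, *Oas1a*, *Oasl2* and *Zbp1*, where 18.1% of all genes were called higher. Over the 55 CKIs, 23 of 1320 combinations were lower and 14 higher. The lower share was 1.74%, against 1.24% over all genes, and 2.21% of all gene and CKI combinations were higher. The correlations of the 24 genes with *Ogfr* over the 56 groups ran from -0.07 to 0.42. Their median was 0.21, beside a median of 0.13 over all other genes. The study reports that Filgotinib and BMS911543 shared many regulated genes, mostly ones that interferon beta does not regulate. Of 20 NF-kB response genes, 4 were called lower with each of these CKIs, with 3, 1 and 6 called higher, and *Nfkb2* and *Relb*, which encode subunits of the non-canonical pathway, were lower with each. Over all genes the shares were 14.6%, 8.08% and 5.26% lower and 6.1%, 0.472% and 18.1% higher. Over the 55 CKIs, 36 of 1100 combinations of these 20 genes were lower and 50 higher. The lower share was 3.27%, against 1.24% over all genes, and 2.21% of all gene and CKI combinations were higher. Their correlations with *Ogfr* ran from -0.19 to 0.58, with a median of 0.25. With *Scand1* they ran from -0.30 to 0.66, with a median of 0.07, beside a median of 0.08 over all other genes. The highest values were for *Tnfaip3* with *Ogfr* and *Relb* with *Scand1*.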

How the data were processed

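Per the submitters' processing notes and the study's methods, the authors mapped the reads on mm10 using TopHat2 (version 2.1.1), removed blacklisted regions with bedtools (version 2.29.2), counted reads on RefSeq exons, scaled the samples on invariant genes and used DESeq2 in R 3.6.2 for their own tests. The deposited values are these scaled counts rounded to whole numbers, a score in which whole reads and the true depth cannot be recovered, so low values such as those of *Scand1* carry a counting error that is not known. Columns were matched to samples by title, with 0 columns left over. Here limma (3.58.1, R 4.3.3) was run on log2(value + 1) with a variance trend over all 59 groups and the 12714 genes with a mean of at least 10, each CKI against the 6 DMSO samples, with Benjamini-Hochberg adjustment per comparison. A call is an adjusted p under 0.05. A fold change on this scale understates the change of low genes. The fit has no block for the replicate number. Replicates are described as independent biological replicates. The script was tested on simulated data for Filgotinib against DMSO, with independent noise and no structure by replicate number. Of 200 genes changed by a log2 fold of 1, 65.5% were recovered, with 10 false calls. At a log2 fold of 2, 99.5% were recovered, with 14 false calls. The noise was simpler than in the data, so these values do not give the error rate of the calls here.

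The members, gene lists, CKI classes and tests were chosen with earlier results of these data known. Genes named are both members, the 8 most and 3 least like each by Pearson correlation of group means over DMSO and 55 CKIs, genes within 50 kb, and genes of the opioid growth factor and SCAN lists that passed the filter, of which those with a call or a known role are given. CKIs named are those called for a member, the JAK and ERBB inhibitors, and the 3 highest and lowest groups, with others of the same classes. The genes called lower most often, and the interferon-stimulated, NF-kB and marker genes named as examples, were picked after their values were seen. Annotation and G and C content came from GENCODE vM21 and promoters from RefSeq (GRCm38.p6). Python 3.11.15 with pandas 2.3.3, NumPy 2.4.6, SciPy 1.17.1 and matplotlib 3.10.9 was used. Alternatives were pseudocounts of 0.5 and 10, filters, scaling, references (1 of them, like the mitochondrial covariate, added after the data were seen), covariates and left-out samples.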

Additional observations from a re-analysis of the deposited data

How the results depend on the processing

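*Ogfr* was called lower in 18 of the 55 CKIs in the fit as reported, and in 6 when the mean of the other CKIs replaced DMSO as the reference, where it was also called higher in 3 against 0. With the mean of the other CKIs without Filgotinib, BMS911543 and Lapatinib as reference, chosen after the data were seen, it was called lower in 8 and higher in 3. The number was 13 in fits limited to each CKI and DMSO, 20 with a block for the replicate number and 8 to 18 over the fits that left out samples. *Scand1* was called lower in 2 CKIs, in 5 with the block and in 1 to 11 over the fits that left out samples. The labels do not say that equal numbers share a batch. Same-numbered samples of different groups deviated together on average, with a mean correlation of 0.22. The mean for different numbers, -0.11, follows from taking deviations from each group's mean and adds nothing separate. Of the same-numbered pairs, 71.8% had a correlation over 0.1, and the lowest was -0.73. The samples thus shared some structure by replicate number, for which the fit as reported has no block. The block added Apitolisib, Bafetinib and Volasertib for *Scand1*, and AZD1208 and Vatalanib for *Ogfr*. Adding the mitochondrial share as a covariate to the block, a fit chosen after the data were seen, gave 19 calls for *Ogfr*, of which 17 were among the 18, and 2 for *Scand1*. With the other CKIs as reference, the log2 difference of *Ogfr* with Omipalisib was 0.0348 and that of *Scand1* with Silmitasertib 0.0100, against negative values in the fit as reported. Of 900 alternative values for 36 tested combinations of gene and CKI, 808 kept direction and side of the threshold, 71 lost a call, 19 gained one and 2 turned direction, and 43 shifted by more than the pooled SD, 36 of them where a mean of CKIs was the reference. Of 150 alternative values with Filgotinib, BMS911543 and Lapatinib, which carry no test, 10 shifted by more than the pooled SD. The ranges of the log2 difference over all fits mix differences from DMSO and from a mean of CKIs. For *Ogfr* they were -2.58 to -1.40 with Filgotinib, -2.69 to -1.56 with BMS911543 and -2.14 to -1.01 with Lapatinib. In the same order, *Scand1* had ranges of -2.98 to -0.68, -4.26 to -2.70 and -3.37 to -0.32. The *Ogfr* ends of -1.40, -1.56 and -1.01 had the other CKIs as reference. Against DMSO, the smallest *Ogfr* falls were -2.08, -2.35 and -1.84. The correlation of both genes was 0.75, and 0.69 to 0.74 when 1 replicate number was left out, and 0.77 with Filgotinib, BMS911543 and Lapatinib included. The cause of these changes was not tested. The labels do not tie CKIs to a DMSO set, and the read depth behind low *Scand1* values is not known.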

Other observations

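*Phf20*, next to *Scand1*, was higher at an unadjusted p under 0.05 in 28 of the 55 CKIs and lower in 0 (10.1% of all combinations of gene and CKI were higher at this threshold and 4.73% lower), with 6 passing the limma test after adjustment. *Penk*, the gene of the precursor of the *Ogfr* ligand, was lower at an unadjusted p under 0.05 in 10 of the 55 CKIs (4.73% of all combinations) and higher in 0, at means near the filter, with 0 calls after adjustment. Among the SCAN genes, *Zfp24* and *Zscan29* were each called lower in 4 of the 55 CKIs, more than *Scand1* itself, and *Zfp263* was called lower in 3 and higher in 6. These are the largest counts of lower calls among the 23 SCAN genes that passed the filter. Over these 23 genes 1.34% of combinations were lower, near the 1.24% over all genes. Of all gene and CKI combinations, 2.21% were higher.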
